A study of Homo sapiens with 4 samples.

Results

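The miR-26 family consists of the mature microRNAs (miRNAs) hsa-miR-26a-5p and hsa-miR-26b-5p, written below without the species prefix, which share their seed, the bases 2 to 8 that pair with target mRNAs. Both members were chosen by name, and both were found among the 1474 miRNAs listed in at least 1 of the 4 libraries. The libraries hold small RNA of HCT116 and RKO, human colorectal cancer cell lines, and of HCT116-R and RKO-R, the acquired radioresistant lines derived from them by repeated X-ray doses of 4 Gy up to a total of 40 Gy. HCT116-R and RKO-R were then cultured for at least 3 weeks without irradiation, and the parental lines HCT116 and RKO were not irradiated. Each radioresistant line was derived once from its parent, and each line has 1 library, so no difference below has a replicate check. Whether the parental lines were passaged alongside is not given in the sources used here.

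In vertebrates, miR-26 is made from hairpins that lie in introns of the CTDSP genes, which encode small phosphatases of the C-terminal domain of RNA polymerase II. It is a broadly expressed miRNA family that represses, among other targets, the histone methyltransferase EZH2 and cyclins of the G1 phase of the cell cycle. Transcription of miR-26 is known to be lowered by MYC, and depending on the tumor type the family has been described as a tumor suppressor or as a growth-promoting miRNA.

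The mature sequences are shown because the family is defined by them and because 1 internal base separates the members in counting. They were taken from RefSeq (GRCh38.p14) and are written 5′ to 3′ with the seed in capitals.
miR-26a-5p: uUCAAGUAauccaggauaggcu
miR-26b-5p: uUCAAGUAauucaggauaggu
miR-1297: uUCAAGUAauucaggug
miR-4465: cUCAAGUAgucugaccagggga
The first 10 bases of miR-26a-5p and miR-26b-5p are the same. Counted from 1 at the 5′ end, miR-26b-5p differs from miR-26a-5p at 2 of the 21 bases compared, C11U and C21U, and miR-26a-5p has 22 bases against 21. MiR-1297 and miR-4465 are the other mature miRNAs in RefSeq with this seed, and neither was listed in any of the 4 libraries. A count of 0 allows up to 3 counts, or at most 0.440 CPM (counts per 1000000 counts of a library). MiR-1297 has 17 bases, which is shorter than the 18 to 30 bases selected for these libraries. Among the 1313 of the 1474 listed names matched to a RefSeq sequence, the counts of this seed were therefore those of miR-26a-5p and miR-26b-5p alone. The seeds of the unmatched names were not checked.

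MiR-26a-5p has 2 loci with the same mature sequence. MIR26A1 (chromosome 3, 37969404 to 37969480, plus strand) is intronic in CTDSPL, and MIR26A2 (chromosome 12, 57824609 to 57824692, minus strand) is intronic in CTDSP2, in GENCODE release 29 on GRCh38. MiR-26b-5p comes from MIR26B (chromosome 2, 218402646 to 218402722, plus strand), which is intronic in CTDSP1. Each hairpin has the same strand as its host gene, and no other gene is annotated over it, so none of the 3 has an annotated antisense partner. Reads of miR-26a-5p cannot be assigned to MIR26A1 or MIR26A2. Their passenger arms, which are the strands of the hairpin mostly discarded after Dicer processing, can be told apart.
miR-26a-1-3p: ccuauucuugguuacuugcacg
miR-26a-2-3p: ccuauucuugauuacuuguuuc
miR-26b-3p: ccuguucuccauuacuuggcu
MiR-26a-1-3p and miR-26a-2-3p differ at 5 of 22 bases (G11A, C19U, A20U, C21U and G22C), so their counts are the only ones in these libraries that separate both miR-26a loci.

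The libraries had between 6818497 counts in HCT116-R and 7140460 in RKO. Levels in CPM are followed by their 95% Wilson interval, which covers counting error only. Each library is a bulk measurement, so fewer cells that express a miRNA and less of it per cell cannot be told apart. As a check of the labelled cells, 8 epithelial miRNAs (the miR-200 family, miR-192, miR-194 and miR-215) summed to 62978 CPM in HCT116 and 58544 in HCT116-R, and to 10096 in RKO and 11703 in RKO-R. MiR-215-5p was at 0 counts in HCT116, RKO and RKO-R. The sum does not show how its members differ. Over the 4 libraries the log2 ratio of miR-200b-3p to miR-200c-3p spanned 8.74, and that of miR-200b-3p to miR-429 spanned 0.70. A set of 4 fibroblast and smooth muscle miRNAs summed to 333 CPM in HCT116 and 159 in HCT116-R, and to 7.84 in RKO, where miR-145-5p and miR-214-3p were at 0 counts, and 81.6 in RKO-R. Summed levels of 4 blood miRNAs were from 5.64 to 24.2 CPM.

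MiR-26a-5p was among the 10 most abundant miRNAs of every library. HCT116 gave 237082 counts, or 34746 CPM (34609 to 34884), and HCT116-R gave 173753, or 25483 CPM (25365 to 25601). RKO gave 159104 counts, or 22282 CPM (22174 to 22391), and RKO-R gave 209338, or 30281 CPM (30154 to 30409). The order of its levels was thus HCT116, RKO-R, HCT116-R and RKO, with the highest parental and the lowest parental library at the ends and both radioresistant libraries between them. It held 3.47% of all counts in HCT116, at rank 8 among miRNAs, and 2.23% in RKO, at rank 10.

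MiR-26b-5p was more than an order of magnitude less abundant and was the more even member. HCT116 gave 7657 counts, or 1122 CPM (1097 to 1148), and HCT116-R gave 6503, or 954 CPM (931 to 977). RKO gave 7760 counts, or 1087 CPM (1063 to 1111), and RKO-R gave 8099, or 1172 CPM (1146 to 1197). Its levels ran in the order RKO-R, HCT116, RKO and HCT116-R, and its rank stayed between 59 and 62. The intervals of RKO-R and HCT116 overlapped, and so did those of HCT116 and RKO, but both direct folds lay outside counting error. MiR-26b-5p in RKO-R was at 1.04 times its HCT116 level (1.01 to 1.08, exact counting interval), and in RKO at 0.968 times (0.938 to 0.9996). Between its highest and lowest library the fold was 1.23 (1.19 to 1.27, exact counting interval), while miR-26a-5p in RKO was 0.641 times its level in HCT116 (0.637 to 0.645).

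**Figure D1:**
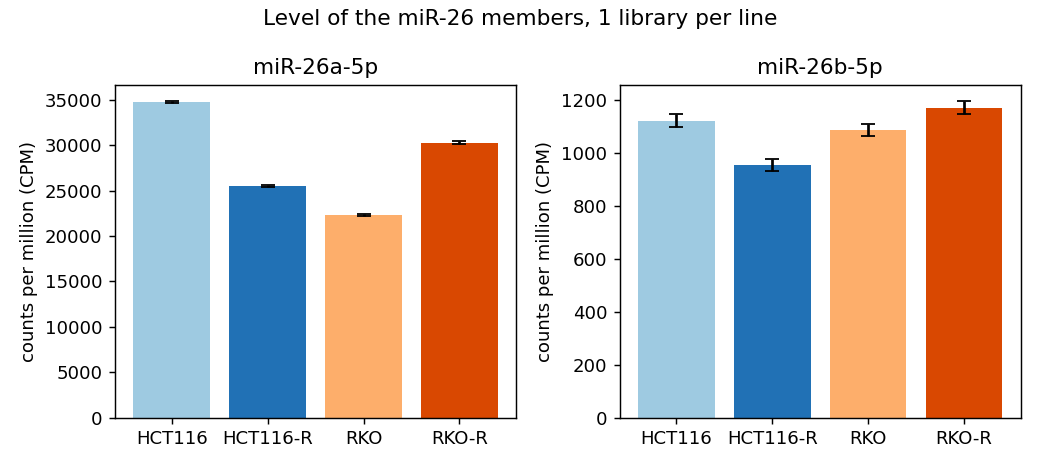
Levels of miR-26a-5p (left) and miR-26b-5p (right) in CPM, with 1 library per line and bars starting at 0; error bars are 95% Wilson intervals for counting error. MiR-26a-5p runs from 22282 CPM in RKO to 34746 in HCT116, and miR-26b-5p from 954 in HCT116-R to 1172 in RKO-R.

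Together both members held 3.59% of the HCT116 library and 2.64% of the HCT116-R library, against 2.34% for RKO and 3.15% for RKO-R. When all miRNAs matched to a RefSeq sequence were grouped by their bases 2 to 8, the miR-26 seed ranked between 7 in RKO-R and 9 in HCT116-R and RKO. It ranked 8 of 848 seeds with counts in HCT116. Nearly all of this seed was supplied by miR-26a-5p, with miR-26b-5p at 3.13% of the family counts in HCT116 (3.06 to 3.20, Wilson) and 4.65% in RKO (4.55 to 4.75).

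To compare the radioresistant and parental lines, the exact test of edgeR was used with the biological coefficient of variation (BCV) of 0.2 that is named in the methods, TMM scaling within the pair and Benjamini-Hochberg adjustment over all miRNAs of the pair. This test compares 2 libraries and rests on the assumed BCV. In HCT116-R, miR-26a-5p was at 0.722 times its level in HCT116, with a log2 change of -0.47 (SE 0.41; edgeR adjusted p = 0.90). MiR-26b-5p had a log2 change of -0.26 (SE 0.41; edgeR adjusted p = 1). In RKO-R both values were positive. MiR-26a-5p was at 1.60 times its level in RKO, with a log2 change of 0.68 (SE 0.41; edgeR adjusted p = 0.54). MiR-26b-5p had a log2 change of 0.35 there (SE 0.41; edgeR adjusted p = 1). Thus 0 of the 2 members were called in either pair, against 4.01% of the 1322 miRNAs tested in the HCT116 pair and 5.54% of the 1155 tested in the RKO pair. Before adjustment the p of miR-26a-5p was 0.254 and 0.0992 in the HCT116 and RKO pairs, and that of miR-26b-5p was 0.533 and 0.402, so 0 members were under 0.05 at the unadjusted level either, against 11.3% and 12.8% of all miRNAs. The 95% interval of the log2 fold change of miR-26a-5p at this BCV was -1.27 to 0.33 in the HCT116 pair and -0.12 to 1.48 in the RKO pair, so both intervals include no change as well as a 2-fold change. The summed fibroblast and smooth muscle miRNAs moved in the same directions as miR-26a-5p. They went from 333 to 159 CPM in the HCT116 pair and from 7.84 to 81.6 CPM in the RKO pair. So did the summed epithelial miRNAs, from 62978 to 58544 CPM and from 10096 to 11703 CPM. The summed blood miRNAs were lower in both radioresistant lines, from 24.2 to 19.9 CPM and from 8.40 to 5.64 CPM. The part of these sets in the values of miR-26a-5p was not tested.

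The summed family followed miR-26a-5p, with log2 fold changes of -0.47 (adjusted p = 0.89) and 0.67 (adjusted p = 0.54) in the same edgeR test. The TMM scaling raised all changes in the RKO pair by 0.24 on the log2 scale over the library totals, and it moved those of the HCT116 pair by -0.02. By library totals alone, the log2 fold changes in RKO-R were 0.44 for miR-26a-5p and 0.11 for miR-26b-5p. A larger change is therefore given for RKO-R than for HCT116-R by TMM, and changes of nearly equal size (-0.45 and 0.44) by library totals. At a BCV of 0.1, miR-26a-5p was called in RKO-R (adjusted p = 0.0104 in the edgeR exact test).

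The sizes of these changes were set beside those of the 203 miRNAs with at least 100 counts in every library. Of these, 64.0% had a smaller change than miR-26a-5p in HCT116-R and 76.8% in RKO-R, and 36.5% and 48.3% had a smaller change than miR-26b-5p. Over all miRNAs of each pair, which include those at low counts, the shares were 31.8% and 39.5% for miR-26a-5p and 19.1% and 24.8% for miR-26b-5p. The median log2 fold change of the 203 miRNAs was -0.19 in HCT116-R and 0.08 in RKO-R. Being lower in HCT116-R and higher in RKO-R was the most frequent of the 4 possible combinations, found for 80 of the 203 (39.4%). A 2-fold change of well-counted miRNAs was seldom seen: 1.97% were at least 2-fold higher and 3.45% at least 2-fold lower in HCT116-R, and 5.42% and 7.39% in RKO-R.

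Whether the members changed differently in the RKO pair and the HCT116 pair was tested with an interaction term over all 4 libraries, by edgeR's likelihood ratio test at the assumed BCV. This test was chosen with the values in view. The change in the RKO pair exceeded that in the HCT116 pair by 1.12 on the log2 scale for miR-26a-5p (adjusted p = 0.36) and by 0.57 for miR-26b-5p (adjusted p = 0.89). Neither was called, against 4.75% of the 1474 miRNAs. At a BCV of 0.1 the difference of miR-26a-5p was called (adjusted p = 0.0020). It was not called at a BCV of 0.4. With library totals in place of TMM the difference of miR-26a-5p was 0.89 on the log2 scale and was not called either.

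A fit with the cell line as a block, also added with the values in view, gives the change shared by both pairs. It estimates the spread from the 4 libraries, with 1 residual degree of freedom. By edgeR's quasi-likelihood test, the log2 difference of radioresistant over parental lines was 0.12 for miR-26a-5p (adjusted p = 1.00) and 0.06 for miR-26b-5p (adjusted p = 1.00), and both turned negative with library totals (-0.0024 and -0.06). Thus 0 of the 2 members were called, against 0.746% of the 1474 miRNAs, and 0 were under 0.05 before adjustment, against 2.78%. The common BCV estimated in this fit, which holds any difference of the change between the cell lines, was 0.495, above the 0.2 assumed for each pair.

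**Figure D2:**
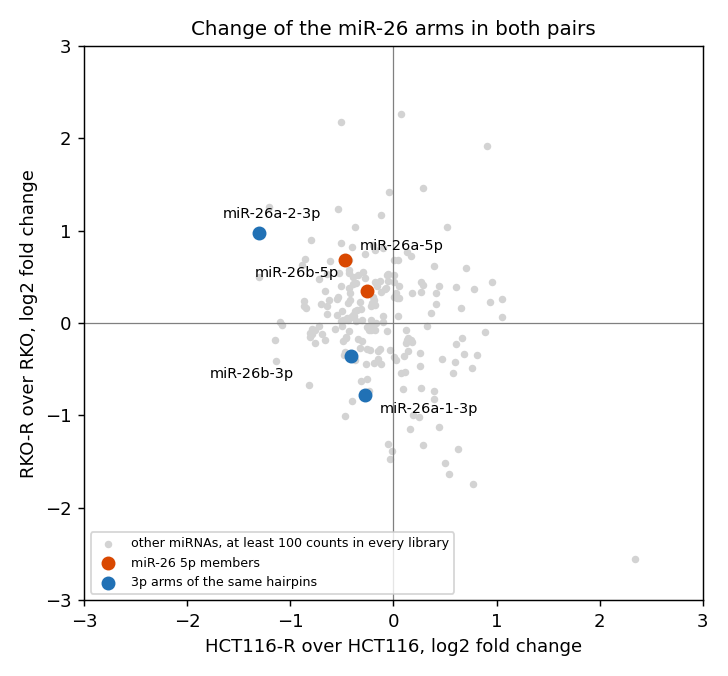
Log2 fold change in HCT116-R over HCT116 (x axis) and in RKO-R over RKO (y axis), by edgeR with TMM scaling within each pair, with 1 library per line. Orange points are both 5p members, blue points the 3p arms of their hairpins, and grey points 198 of the 201 other miRNAs with at least 100 counts in every library (3 lie beyond the axes). Both members lie at the upper left, as does miR-26a-2-3p at -1.31 and 0.98, while miR-26a-1-3p and miR-26b-3p lie at the lower left.

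The ratio of miR-26a-5p to miR-26b-5p within a library does not depend on the scaling between libraries. It is a ratio of counts, and its changes are compared here rather than its size, because ligation and amplification can favor 1 sequence over another. There were 31.0 counts of miR-26a-5p per count of miR-26b-5p in HCT116 (30.3 to 31.7, Wilson) and 26.7 in HCT116-R (26.1 to 27.4). The ratio was 20.5 in RKO (20.04 to 21.0) and 25.8 in RKO-R (25.3 to 26.4). Hence the parental lines stood at the ends of the range and the radioresistant lines in the middle, where the intervals of HCT116-R and RKO-R overlapped.

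From HCT116 to HCT116-R the ratio was multiplied by 0.863 (0.834 to 0.892 for counting error), and from RKO to RKO-R by 1.26 (1.22 to 1.30). Between RKO and HCT116 it differed most, by a factor of 0.662 (0.641 to 0.684), and between RKO-R and HCT116-R least, by 0.967 (0.936 to 1.00). All of these exceed counting error except the last, and with both arms of the hairpins counted the last did too (0.962, 0.931 to 0.995). With the BCV of 0.2 assumed for each miRNA, the interval of the log2 change was -1.34 to 0.92 in the HCT116 pair and -0.80 to 1.47 in the RKO pair, so none is distinguishable from the spread assumed between libraries. Whether reads that carry a mismatch at base 11 were counted under the other member is not given in the sources used here.

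As background for this ratio, 78 pairs of miRNAs with the same seed and at least 100 counts in every library were compared. They comprise 54 miRNAs of 18 seeds, and pairs of one family share members. In the HCT116 pair, the miR-26 ratio shifted by 0.21 on the log2 scale against a median of 0.43 over the 78 pairs, and 23 pairs shifted less. The smallest shift was that of miR-148a-3p and miR-148b-3p (-0.001), followed by let-7e-5p with let-7g-5p and miR-181c-5p with miR-181d-5p. The largest was that of let-7b-5p and let-7c-5p (-1.41), then let-7c-5p with let-7d-5p (1.27) and miR-25-3p with miR-92b-3p (-1.24). In the RKO pair the miR-26 ratio shifted by 0.33, which was at the median of 0.33, and 38 pairs shifted less. There, let-7a-5p with let-7f-5p (-0.002), miR-34a-5p with miR-449a and let-7d-5p with let-7e-5p shifted least. Pairs with let-7c-5p shifted most, by up to -1.89 for let-7b-5p and let-7c-5p, whose counts went from 135302 and 414 in RKO to 112806 and 1282 in RKO-R. Over all 4 libraries the log2 ratio of the miR-26 members spanned 0.59, against a median span of 1.30, and 12 of the 78 pairs spanned less.

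**Figure D3:**
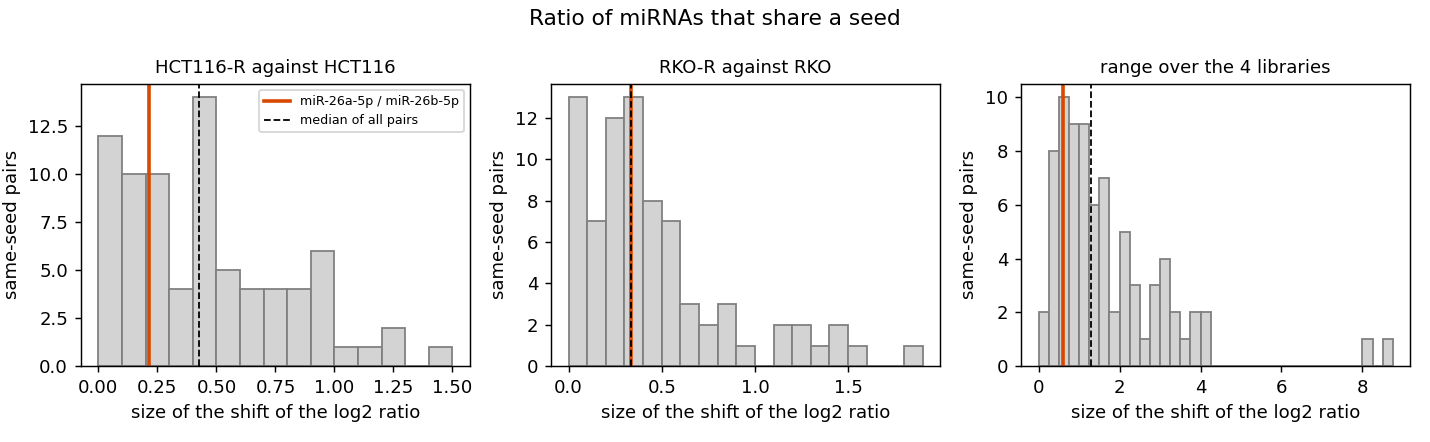
Histograms of the size of the shift of the log2 count ratio for 78 pairs of miRNAs that share a seed, in HCT116-R against HCT116 (left) and RKO-R against RKO (middle), and of its range over the 4 libraries (right). The orange line is the pair of miR-26a-5p and miR-26b-5p at 0.21, 0.33 and 0.59, and the dashed line is the median of all pairs at 0.43, 0.33 and 1.30.

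By CPM of the library total, the HCT116 and RKO lineages did not separate by the level of either member. For miR-26a-5p, HCT116 and HCT116-R at 34746 and 25483 CPM overlapped the range of RKO and RKO-R at 22282 and 30281 CPM, and the lineage means differed by 0.20 on the log2 scale. For miR-26b-5p the HCT116 lineage was 0.13 lower on that scale (-0.13), again with overlapping values. When the most abundant miRNAs were left out of the totals, however, the lineages did not overlap for miR-26b-5p, at 3348 and 2866 CPM in HCT116 and HCT116-R against 3447 and 3801 in RKO and RKO-R. By CPM of the library total, 66% of the 203 miRNAs with at least 100 counts in every library did not overlap between the lineages. This share was not computed with the most abundant miRNAs left out, and neither was the counting error of the margin of miR-26b-5p. The ratio of the members was 0.32 higher on the log2 scale in the HCT116 lineage. Both libraries of that lineage lay above both of the RKO lineage. The margin was within counting error for the 5p arms and beyond it with both arms counted. At the BCV of 0.2, the log2 interval for RKO-R minus HCT116-R was -1.18 to 1.08 for the 5p arms. How many same-seed pairs separate the lineages by their ratio was not computed, so this separation has no background share. A parental line and its derivative are not replicates of a lineage, and no test was made.

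The passenger arms were counted at much lower levels than the guides, with 45 to 218 counts each, so their values carry wider errors. MiR-26a-1-3p, from the CTDSPL intron, was counted 137 times in HCT116 and 115 times in HCT116-R, then 125 times in RKO and 60 times in RKO-R. MiR-26a-2-3p, from the CTDSP2 intron, was counted 161, 66, 45 and 73 times in the same order. RKO-R was the low library of the first and HCT116 the high library of the second. In CPM, miR-26a-1-3p was at 0.496 times its RKO level in RKO-R (0.358 to 0.680, exact counting interval), and miR-26a-2-3p was at 0.410 times its HCT116 level in HCT116-R (0.303 to 0.550).

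In the edgeR exact test, miR-26a-2-3p had log2 fold changes of -1.31 in HCT116-R (SE 0.46, adjusted p = 0.11) and 0.98 in RKO-R (SE 0.49, adjusted p = 0.43). For miR-26a-1-3p the values were -0.27 in HCT116-R (SE 0.45, adjusted p = 1) and -0.77 in RKO-R (SE 0.47, adjusted p = 0.54). Among the 5 arms, the difference between the pairs was called for miR-26a-2-3p alone, whose change in the RKO pair exceeded that in the HCT116 pair by 2.25 on the log2 scale (adjusted p = 0.0217 in the edgeR likelihood ratio test chosen with the values in view, adjusted over 1474 miRNAs). That is 1 of 5 arms, against 4.75% of all miRNAs. It was not called at a BCV of 0.4 (adjusted p = 0.62). MiR-26a-2-3p had the same signs as its guide miR-26a-5p in both pairs, and miR-26a-1-3p was below its parental level in both.

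Of the miR-26a 3p counts, miR-26a-1-3p made up 46.0% in HCT116 (40.4 to 51.6, Wilson), 63.5% in HCT116-R (56.3 to 70.2), 73.5% in RKO (66.4 to 79.6) and then 45.1% in RKO-R (36.9 to 53.6). Here too the values moved in opposite directions in the 2 cell lines, and in each pair the intervals of parent and derivative lay apart. This share describes the retained passenger strands and does not give the share of miR-26a-5p made at each locus.

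MiR-26b-3p was counted 105 times in HCT116, 80 times in HCT116-R, 218 times in RKO and 140 times in RKO-R. It made up 1.35% of both miR-26b arms in HCT116 (1.12 to 1.63, Wilson) and 1.22% in HCT116-R (0.978 to 1.51), against 2.73% in RKO (2.40 to 3.11) and 1.70% in RKO-R (1.44 to 2.002). RKO was thus the highest, with an interval apart from the other libraries. For miR-26a the passenger share was lower, at 0.126% in HCT116 against 0.104% in HCT116-R, and at 0.107% in RKO against 0.0635% in RKO-R. In that last library, there were 1574 counts of miR-26a-5p for each count of its 2 passengers, and 57.9 of miR-26b-5p for each of miR-26b-3p.

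**Figure D4:**
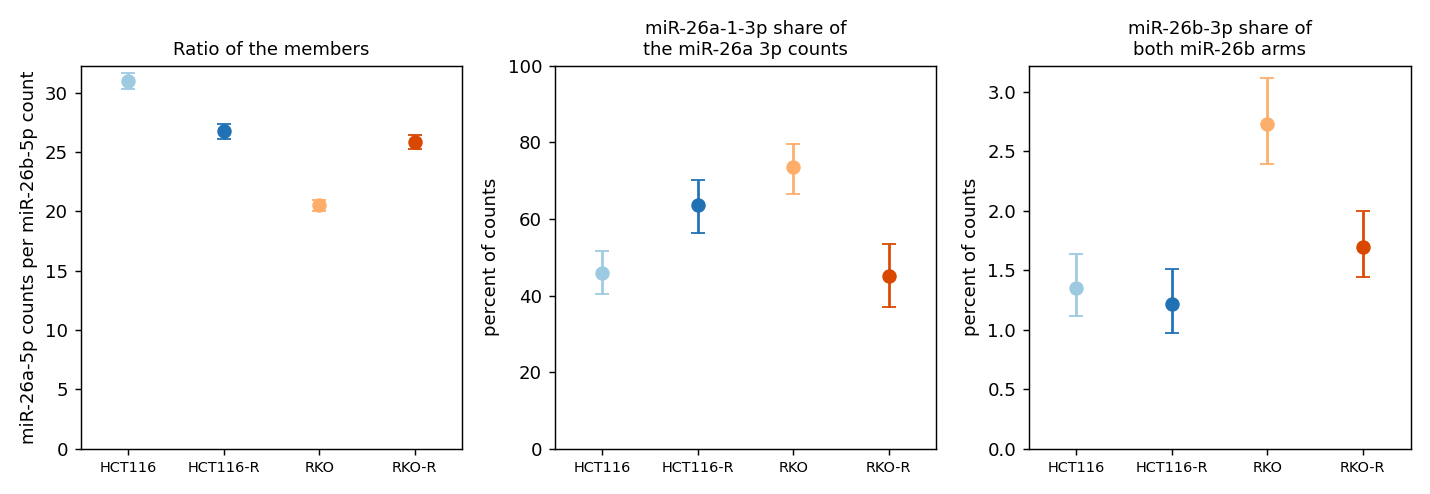
Counts of miR-26a-5p per count of miR-26b-5p (left), miR-26a-1-3p in percent of the counts of both miR-26a 3p arms (middle), and miR-26b-3p in percent of both miR-26b arms (right), with 1 library per line, all axes starting at 0 and error bars as 95% Wilson intervals for counting error. The ratio runs from 20.5 in RKO to 31.0 in HCT116, and the miR-26a-1-3p share from 45.1% in RKO-R to 73.5% in RKO.

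The miRNAs with the most similar profile were listed by the Euclidean distance between log2(CPM + 1) values centred on their mean over the 4 libraries, among miRNAs with at least 100 counts in every library. Over 4 libraries this is only a description. The nearest to miR-26a-5p were miR-181a-3p (distance 0.20), miR-31-3p (0.20), miR-374a-3p (0.21), miR-21-5p (0.24) and miR-151b (0.29), against a median distance of 0.94 over 202 candidates. MiR-21-5p, an abundant miRNA of many tumors, was at 120422 CPM in HCT116 against 90501 in HCT116-R, and at 92158 CPM in RKO against 125963 in RKO-R. The counts of miR-151b are uncertain, since it is known as a near-identical copy of miR-151a-5p. MiR-26b-5p was not among the nearest and stood at place 14 (distance 0.43).

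The nearest to miR-26b-5p were miR-148b-3p (0.12), miR-374b-3p (0.18), let-7g-5p (0.19), miR-378a-5p (0.23) and miR-101-3p (0.24). MiR-101-3p, which like miR-26 represses EZH2, was counted 138 times in HCT116 against 104 in HCT116-R, and 140 times in RKO against 168 in RKO-R. It was lowest in HCT116-R and highest in RKO-R, as was miR-26b-5p. This likeness follows from its choice as a near profile and is no separate result. MiR-138-5p, the other EZH2-targeting miRNA described below, was highest in HCT116-R (14.8 CPM) and lowest in RKO (3.36 CPM). When at least 1000 counts were asked for in every library, 2 of the 5 nearest were kept for each member.

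**Figure D5:**
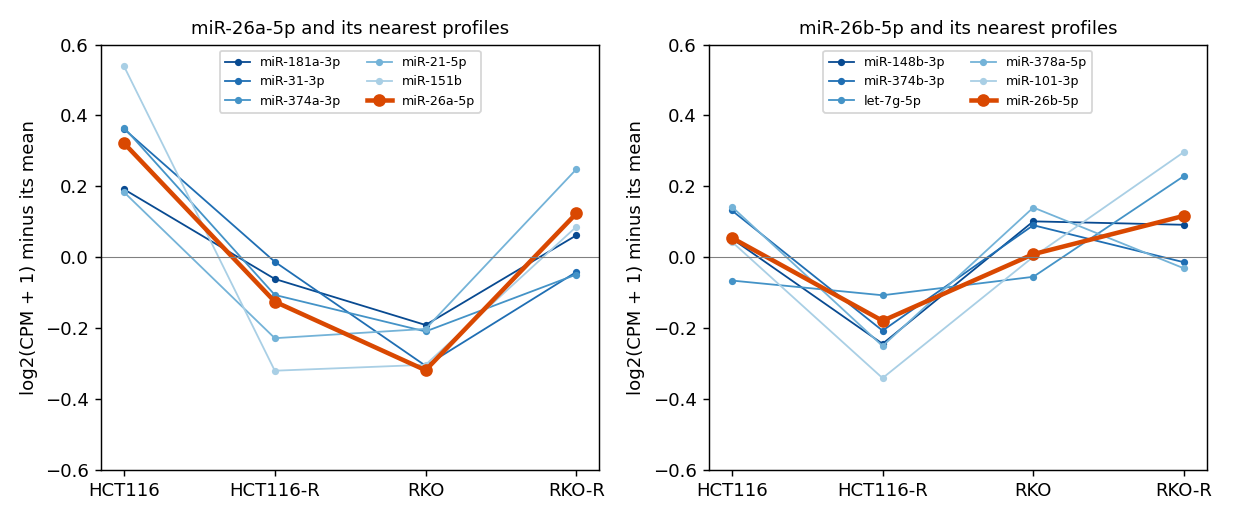
Profiles of miR-26a-5p (left) and miR-26b-5p (right, both orange) with the 5 nearest miRNAs of each (blue), as log2(CPM + 1) minus its mean over the 4 libraries. MiR-26a-5p is lowest in RKO and miR-26b-5p lowest in HCT116-R, and the nearest profiles lie within a distance of 0.29 and 0.24.

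Other miRNAs known to be regulated by MYC were described from a list that was chosen with earlier results of these data known. Of 18 MYC-repressed miRNAs other than miR-26 (let-7, miR-15/16, miR-22, miR-29, miR-30, miR-34a, miR-146a, miR-150 and miR-195 with miR-497), 0 were at least 2-fold higher and 1 was at least 2-fold lower in HCT116-R. Their median log2 fold change was -0.01, against 0.07 over all miRNAs of the pair and -0.19 over the 203 miRNAs with at least 100 counts in every library. The one past 2-fold was miR-497-5p, which fell from 386 to 141 counts, with a log2 change of -1.47 (SE 0.43; edgeR adjusted p = 0.0233). MiR-22-3p had the highest log2 fold change in the list, at 0.96 (edgeR adjusted p = 0.29), with 50188 and 98874 counts.

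In RKO-R, 1 of the 18 was at least 2-fold higher and 3 were at least 2-fold lower, with a median of 0.19 against 0.02 over all miRNAs and 0.08 over the 203. MiR-146a-5p, a regulator of NF-kB signaling, rose from 140 to 308 counts (log2 change 1.42; edgeR adjusted p = 0.0328). MiR-30c-5p fell from 364 to 108 counts (-1.47, adjusted p = 0.0294) and miR-30d-5p from 25652 to 7385 (-1.51, adjusted p = 0.0107). MiR-195-5p was counted 6 times in RKO and not in RKO-R. Let-7a-5p and let-7f-5p, at log2 fold changes of 0.68 and 0.69, lay close to the 0.68 of miR-26a-5p there. In HCT116-R they did not, at 0.0008 and 0.05 against -0.47 for miR-26a-5p.

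Of the 6 MYC-induced miRNAs of the miR-17-92 cluster, 0 were past 2-fold in either direction in either pair, and their log2 fold changes lay between -0.50 and 0.23 in HCT116-R and between -0.30 and 0.44 in RKO-R. For the other EZH2-targeting miRNAs, miR-101-3p and miR-138-5p, the range was -0.43 to 0.11 for HCT116-R and 0.55 to 0.70 for RKO-R. Here too 0 were past 2-fold. Of all miRNAs of a pair, most at low counts, 28.9% were at least 2-fold higher and 17.1% at least 2-fold lower in HCT116-R, and 23.6% and 26.8% in RKO-R. Among those with at least 100 counts in every library, the shares were 1.97% and 3.45% in HCT116-R, and 5.42% and 7.39% in RKO-R. The mRNAs and proteins that miR-26 targets were not measured in these libraries.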

How the data were processed

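Small RNA of 18 to 30 bases was sequenced on the BGISEQ-500 platform from 4 lines with 1 library each, with adapters that carried unique molecular identifiers. For each library, the authors deposited unnormalized read counts by mature miRNA, with no entry for miRNAs without reads, and missing entries were set to 0. The submitters' processing notes name Bowtie2 and hg38. The miRNA annotation, the mismatches allowed, the use of strand and whether reads sharing an identifier were collapsed are not given in the sources used here.

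Samples were grouped by their labels, and doses are those in the methods of the study. Counts were scaled by the library total to CPM. Intervals are 95% Wilson or exact binomial intervals and cover counting error only. Each pair was fitted over all its miRNAs with the exact test of edgeR 4.0.16 (R 4.3.3) at a BCV of 0.2 and TMM scaling, and a miRNA was called at a Benjamini-Hochberg adjusted p under 0.05. Fits were tested on data simulated at the BCV of 0.2, so this could not check whether that value holds. Recovery over all miRNAs fell short of the criterion first set there, with most misses at low counts. The criterion was then restricted to miRNAs with a mean of at least 100 counts, and the fit was left as it was. MiR-26a-2-3p, with 45 and 73 counts in RKO and RKO-R, lies below that mean in the RKO pair. So does miR-26a-1-3p in the RKO pair (125 and 60 counts), and miR-26b-3p in the HCT116 pair (105 and 80 counts). Standard errors were derived from the counts and the BCV. Alternatives were library totals, size factors of DESeq2 1.42.0, TMM over 4 libraries, a BCV of 0.1 or 0.4, a minimum of 10 counts and the likelihood ratio test. Both fits over 4 libraries, the interaction and the cell line as a block, were added after the values were seen.

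Seeds are bases 2 to 8 of the RefSeq mature sequences, and 1 sequence was found for each of 1313 of the 1474 names. The members and lists were chosen with earlier results of these data known. Named are the members, the other arms of their hairpins, miRNAs with the same seed, the 5 nearest profiles per member, the 3 same-seed pairs with the largest and the smallest shift, and list members past 2-fold with at least 100 counts. Others named, such as miR-22-3p, miR-195-5p, let-7a-5p and let-7f-5p, were chosen after their values were seen. Computations used Python 3.11.15 with scipy 1.17.1, pandas 2.3.3, numpy 2.4.6, and matplotlib 3.10.9 for plots.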

Additional observations from a re-analysis of the deposited data

Results flagged for a closer look

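MiR-26a-2-3p, the passenger arm of MIR26A2, stood out because its change differed between the cell lines. It was lower in HCT116-R than in HCT116 (66 against 161 counts) and higher in RKO-R than in RKO (73 against 45 counts), and its change in the RKO pair exceeded that in the HCT116 pair by 2.25 on the log2 scale (edgeR likelihood ratio test at a BCV of 0.2, adjusted p = 0.0217), a call made for 4.75% of the 1474 miRNAs. The difference was called at a BCV of 0.1 (adjusted p = 1.4e-05) and with library totals in place of TMM (difference 2.03, adjusted p = 0.0495), and was not called at a BCV of 0.4 (adjusted p = 0.62). Each direction rests on 1 library per line.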

How the results depend on the processing

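Both members and their sum kept their direction in each pair under all alternatives run. At a BCV of 0.1, miR-26a-5p (log2 fold change 0.68, adjusted p = 0.0104) and the family sum (0.67, adjusted p = 0.0113) were called in RKO-R, and no other alternative called a member or the sum in a pair. Over the 7 alternatives, the log2 fold change of miR-26a-5p ranged from -0.48 to -0.44 in HCT116-R (adjusted p from 0.138 to 1) and from 0.44 to 0.68 in RKO-R (adjusted p from 0.0104 to 1), and that of miR-26b-5p from -0.27 to -0.22 and from 0.11 to 0.35. The miRNAs called in all were 154 and 148 at a BCV of 0.1 in the HCT116 and RKO pairs and 24 and 9 at a BCV of 0.4, against 53 and 64. In the RKO pair, 29 were higher and 35 lower with TMM, 20 and 54 with library totals, 32 and 56 with at least 10 counts, and 39 and 54 with the likelihood ratio test.

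The difference between the lineages moved from 0.20 to 0.097 for miR-26a-5p and from -0.13 to -0.22 for miR-26b-5p when the most abundant miRNAs were left out of the library totals, and to 0.21 for miR-26a-5p with TMM over all 4 libraries. Only in the first of these settings did the lineages not overlap for miR-26b-5p. The share of all miRNAs without overlap in that setting and the counting error of the margin were not computed, so no separation is read from it. Counting both arms of the hairpins moved the change of the ratio by less than its counting interval in both pairs, but took the ratio in RKO from 20.5 (20.04 to 21.0) to 19.96 and the difference between RKO-R and HCT116-R beyond counting error. In HCT116-R, miR-26a-2-3p was called at a BCV of 0.1 (adjusted p = 0.00017) and with at least 10 counts (adjusted p = 0.0492), and in RKO-R at a BCV of 0.1 (adjusted p = 0.0376). The difference of miR-26b-3p between the pairs went from 0.02 to -0.20 with library totals, and neither was called. At a limit of 1.5-fold, 3 of the MYC-repressed miRNAs were higher and 5 lower in HCT116-R, and 4 were higher and 4 lower in RKO-R. In RKO-R, 1 of the other EZH2-targeting miRNAs was higher at that limit. The shares of all miRNAs past 1.5-fold were not computed, so these counts have no background.

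With the cell line as a block, library totals turned the log2 difference from 0.12 to -0.0024 for miR-26a-5p and from 0.06 to -0.063 for miR-26b-5p, and neither was called. The labels give no replicate numbers, so no other pairing was fitted, and no library was left out, since each line has 1. Depth does not limit the guide strands, whose counting errors are small, while the lack of replicates does. The passenger arms are limited by both.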
